A study of Mus musculus with 6 samples.

Results

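The genes described here are the brakes that MAP kinase signalling builds for itself. They comprise 6 MAP kinase phosphatases (Dusp1, Dusp2, Dusp4, Dusp5, Dusp6 and Dusp10), 3 Sprouty genes (Spry1, Spry2 and Spry4) and the Sprouty-related gene Spred1. These 10 genes were chosen by name from the 54532 genes of the deposited count table, and 7 of the 10 had enough reads to be tested. They were read in RNA-seq libraries of AE9a leukemia cells, which carry the splice variant AML1-ETO9a of the fusion gene made by the t(8;21) translocation. The AE9a leukemia was started by retroviral transduction of c-Kit+ stem and progenitor cells of C57BL/6 mice, and per the study's methods the cells came from the third generation of transplanted mice, so the leukemia was a transplanted one in both regions. The central bone marrow (CBM) cells were flushed from femurs and tibias, and the endosteal bone marrow (EBM) cells were released by collagenase from the bone that remained, with 3 libraries per region. Cells of both regions were kept in medium with serum before and after sorting. The comparison asks which genes differ between leukemia cells of the inner marrow and those next to the bone surface. Only the EBM cells went through the digestion, so region and digestion cannot be told apart in any result below.

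MAP kinases are switched on by phosphorylation of a threonine and a tyrosine in their activation loop, and dual-specificity phosphatases switch them off by removing both phosphates. The phosphatases differ in where they act and on which kinase. Dusp1, Dusp2, Dusp4 and Dusp5 encode nuclear enzymes whose genes are rapidly induced by the pathway, Dusp6, Dusp7 and Dusp9 encode cytoplasmic enzymes that prefer ERK, and Dusp8, Dusp10 and Dusp16 encode enzymes that prefer the stress kinases JNK and p38. Sprouty and SPRED proteins act further up, where they restrain signalling from growth factor receptors through Ras and Raf to ERK. In blood cells, these genes are known to be induced by cytokines and growth factors and to limit how long the signal lasts.

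In GRCm38 coordinates of the table, Dusp1 lies on the minus strand at chr17:26505590-26508519, Dusp2 on the plus strand at chr2:127336159-127338376, Dusp5 on the plus strand at chr19:53529109-53542431 and Dusp10 on the plus strand at chr1:184013302-184075636. Spry1 lies on the plus strand at chr3:37639947-37644598, Spry2 on the minus strand at chr14:105891947-105896819 and Spred1 on the plus strand at chr2:117121374-117182279. The genes that were not tested are Dusp4 on the plus strand at chr8:34807297-34819894 and Dusp6 on the plus strand at chr10:99263231-99267489, and also Spry4. These spans were the same in GENCODE M21 for 8 of the 10 genes, and differed for Dusp1 and Spry4. Dusp10 overlaps 1700056E22Rik on the opposite strand, which had between 68 and 195 counts per library. Whether the counting used the strand is not given in the sources used here, so the Dusp10 counts are uncertain to that extent.

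The promoters of 4 members are shown because the results turn on them. Dusp1 and Dusp10 are the tested members whose libraries did not overlap between regions, as was so for 15.1% of all tested genes, in opposite directions, and Dusp2 and Dusp5 are phosphatase genes that varied several-fold within each region. Each sequence is the 250 bases before the RefSeq start in GRCm38.p6, on the gene's own strand, and 8 of the 10 members had an entry. Capitals mark the motifs searched for on both strands, which were the cAMP response element TGACGTCA, its core TGACG, the AP-1 site TGACTCA, the E-box CACGTG, the TATA box TATAAA, the CArG box of serum response factor and the NF-kB site.
Dusp1, chr17:26508473-26508722, minus strand: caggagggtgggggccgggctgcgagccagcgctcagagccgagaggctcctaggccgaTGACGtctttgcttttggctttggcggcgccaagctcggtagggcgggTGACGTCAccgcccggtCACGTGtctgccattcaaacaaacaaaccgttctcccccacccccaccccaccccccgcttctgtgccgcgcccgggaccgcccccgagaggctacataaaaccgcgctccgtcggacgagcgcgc
Dusp10, chr1:184034131-184034380, plus strand: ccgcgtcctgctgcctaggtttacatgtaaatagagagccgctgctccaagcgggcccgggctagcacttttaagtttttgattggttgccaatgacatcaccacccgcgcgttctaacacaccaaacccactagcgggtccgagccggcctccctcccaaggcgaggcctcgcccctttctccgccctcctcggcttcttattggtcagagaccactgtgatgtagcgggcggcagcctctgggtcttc
Dusp2, chr2:127335909-127336158, plus strand: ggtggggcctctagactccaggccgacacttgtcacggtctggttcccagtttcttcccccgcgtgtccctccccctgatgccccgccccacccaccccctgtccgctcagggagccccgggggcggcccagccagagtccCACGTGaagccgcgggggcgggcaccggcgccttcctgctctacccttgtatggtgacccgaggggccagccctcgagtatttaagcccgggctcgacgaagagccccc
Dusp5, chr19:53528895-53529144, plus strand: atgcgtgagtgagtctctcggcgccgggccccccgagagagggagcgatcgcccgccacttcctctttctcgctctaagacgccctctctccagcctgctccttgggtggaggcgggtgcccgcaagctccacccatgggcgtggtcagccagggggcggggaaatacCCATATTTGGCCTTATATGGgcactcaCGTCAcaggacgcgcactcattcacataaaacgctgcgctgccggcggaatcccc

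The Dusp1 promoter held a full cAMP response element that begins 143 bases before the start, a further copy of the core at 191 bases, and an E-box at 126 bases. The full element was present in 1.55% and the core, which the full element contains on both strands, in 17.8% of the 32851 promoters of the same length. The Dusp5 promoter held adjoining CArG boxes that begin 82 and 72 bases before the start, and a core on the opposite strand at 55 bases, where a CArG box was present in 1.47% of promoters. The Dusp2 promoter held an E-box at 109 bases, a motif of 6.02% of promoters. No motif was found in the windows of Dusp10, Dusp6, Spry1, Spry2 and Spred1, and none of the 8 windows held the AP-1 site, the NF-kB site or TATAAA, which were present in 4.46%, 3.9% and 12.4% of promoters. The Dusp10 window lies inside the span given for the gene in the table, since RefSeq starts this transcript downstream of the table's first base. It also overlaps 1700056E22Rik in part. The windows of Dusp1 and Dusp5 reach partly into the spans given for these genes. A match describes letters only.

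Each library held between 16436526 and 19462964 counts on genes, and a floor of 3 counts corresponded to between 0.149 and 0.193 CPM. This unit is the count divided by the library size and its TMM factor, and intervals and floors cover counting error only. The leukemia markers Kit, Runx1t1, Cd34 and Ptprc summed to between 221 and 286 CPM in every library, most of it from Kit, and Ptprc, which encodes the pan-leukocyte antigen CD45, had a mean of 1.30 CPM in CBM and 2.20 CPM in EBM. Under this even sum Cd34 varied between libraries, with 15.4, 1.16 and 4.86 CPM in CBM and 16.4, 10.5 and 1.22 CPM in EBM. The markers of T cells, B cells, macrophages, osteoblasts, stromal cells and endothelial cells each summed to at most 1.95 CPM, and the osteoblast gene Sp7 and the endothelial gene Emcn were at 0 in every library. Neutrophil markers summed to between 1.39 and 127 CPM in CBM and between 19.8 and 85.6 in EBM, and erythroid markers to between 2063 and 5028 and between 2372 and 3507. In bulk libraries, fewer cells that express a gene and less of its RNA per cell cannot be told apart.

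The regions were compared by the quasi-likelihood test of edgeR, and every adjusted p below is that of Benjamini and Hochberg over all tested genes unless DESeq2 is named. This test called 0 of 13352 genes (0%) and 0 of the 7 tested members, with a smallest adjusted p of 0.0583. An unadjusted p under 0.05 was found for 1056 genes, or 7.91%, split into 535 higher and 521 lower in EBM, and among the members Dusp10 and Dusp1 met this limit, 1 in each direction. DESeq2 called 175 of the 12619 genes to which it gave an adjusted p, or 1.39%, and Dusp1 and Dusp10 were the members among them. The libraries of the regions did not overlap for 2020 of the 13352 tested genes, or 15.1%, and for 2 of the 7 tested members. The median log2 fold change was -0.19 over the 7 tested members and 0.0017 over all tested genes. The labels do not say that libraries came from separate mice, so these p-values measure the spread between libraries, which may be technical.

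Dusp1, which encodes the nuclear phosphatase MKP-1, was the most abundant member by far and was lower at the endosteum. Its level was 1329, 764 and 595 CPM in the CBM replicates in order and 382, 447 and 399.8 CPM in EBM replicates 1 to 3. All 3 EBM libraries lay below all 3 CBM libraries, the EBM values lay close together and CBM replicate 1 stood highest. The CBM mean was 896 ± 384 CPM and the EBM mean 409.6 ± 33.7 CPM (SD, n = 3 each), a 2.19-fold higher mean in CBM. The log2 fold change of EBM over CBM was -1.13 (standard error 0.29), with adjusted p = 0.361 in edgeR's quasi-likelihood test, so Dusp1 did not pass the threshold of 0.05. DESeq2 gave Dusp1 a log2 fold change of -1.13 with adjusted p = 0.00982 on the same counts. The difference was smaller without CBM replicate 1, at -0.73, and lower in EBM in each of the 13 alternatives run.

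Dusp10, which encodes the JNK and p38 phosphatase MKP-5, went the other way. It had 17.5, 21.8 and 12.6 CPM in the CBM replicates in order and 34.6, 43.3 and 52.0 CPM in EBM replicates 1 to 3. All EBM libraries lay above all CBM libraries. The CBM mean was 17.3 ± 4.65 CPM and the EBM mean 43.3 ± 8.72 CPM (SD, n = 3 each). The log2 fold change had a value of 1.32 and a standard error of 0.24 (adjusted p = 0.189, edgeR's quasi-likelihood test), which did not pass the threshold, while DESeq2 gave an adjusted p of 7.41e-05. Counts of 1700056E22Rik, the overlapping gene on the opposite strand, stood at 108, 195 and 112 in CBM against 105, 68 and 104 in EBM. Whether reads of this gene entered the Dusp10 counts was not tested.

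**Figure D1:**
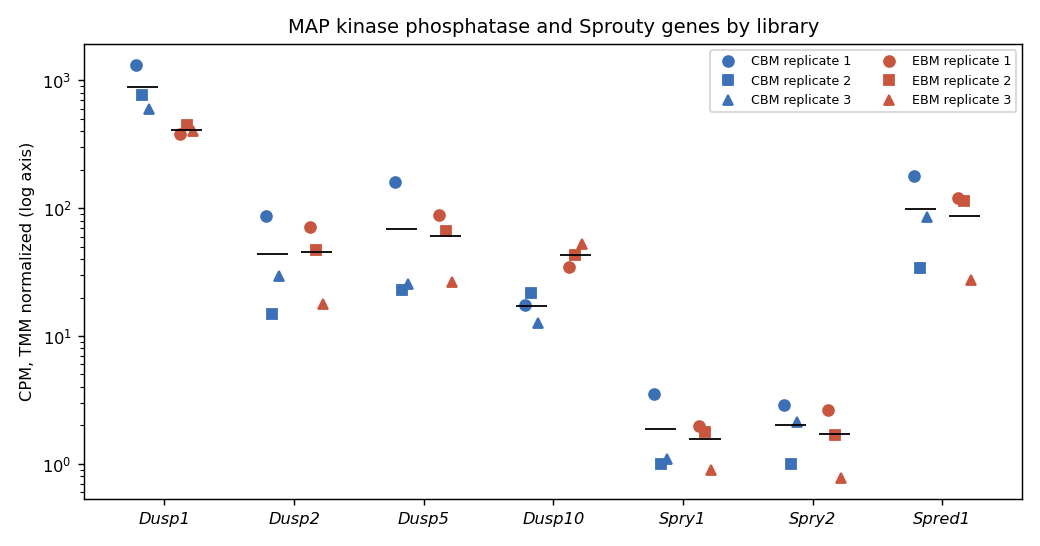
Level of the 7 tested members in each library, as TMM-normalized CPM on a log axis, with CBM in blue, EBM in red, a marker shape per replicate number and a black line at the mean of the 3 libraries of a region. Dusp1 lies at 595 or more in CBM and at most at 447 in EBM, Dusp10 lies above its CBM range in every EBM library, and the regions overlap for the other 5 genes.

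The other nuclear phosphatases did not separate the regions. Dusp2, a phosphatase gene of activated blood cells, had 86.9, 14.7 and 29.7 CPM in CBM and 71.1, 47.4 and 17.9 CPM in EBM. Dusp5, which encodes an ERK-specific phosphatase that also holds ERK in the nucleus, had 159.7, 23.0 and 25.3 CPM in CBM and 89.0, 65.9 and 26.5 CPM in EBM. In both genes the regions overlapped, replicate 1 was the highest library of its region, and the spread within a region was larger than the difference between them. The log2 fold change had a value of 0.06 and a standard error of 0.71 for Dusp2 and -0.19 with a standard error of 0.82 for Dusp5 (adjusted p = 0.997 and 0.989 in edgeR's quasi-likelihood test). Errors of this size do not show that the regions were alike. The sign of the Dusp5 value turned to 1.33 without CBM replicate 1, with an adjusted p of 0.663 in the same test, and that of Dusp2 ranged from -0.42 to 1.03 over the libraries left out.

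Dusp4, the remaining nuclear phosphatase gene, was barely read. It had 0 counts in each CBM library and in EBM replicate 3, and 1 and 4 counts in EBM replicates 1 and 2. Dusp6, the cytoplasmic ERK phosphatase gene that is widely used as a readout of ERK activity, had 2, 8 and 1 counts in CBM and 1, 12 and 2 counts in EBM. Replicate 2 held most of the Dusp6 counts in both regions, and neither gene was tested. The highest of these values, 12 counts, has an exact Poisson 95% interval of 0.345 to 1.17 CPM.

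The 3 Sprouty genes were all low. Spry1 had 62, 19 and 22 counts in CBM and 36, 32 and 14 counts in EBM, and Spry2 had 51, 19 and 43 counts in CBM and 48, 30 and 12 counts in EBM. Both overlapped between regions, with log2 fold changes of -0.25 and standard error 0.58 for Spry1 and -0.23 and standard error 0.54 for Spry2 (adjusted p = 0.980 for each, edgeR's quasi-likelihood test). Spry4 had 30, 8 and 12 counts in CBM and 7, 7 and 0 counts in EBM, so each EBM library lay below each CBM library, but it did not pass the filter on low counts. The exact two-sided permutation test over the 20 relabellings of the libraries gave p = 0.1 for Spry4, the smallest it can give. Its 8 counts in CBM replicate 2 have an exact Poisson 95% interval of 3.45 to 15.8 counts, and the 7 counts in each of EBM replicates 1 and 2 one of 2.81 to 14.4, so those libraries differ by less than the counting error.

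Spred1, which encodes a membrane-bound inhibitor of Ras and Raf signalling that works together with neurofibromin, was the only one of the 4 Sprouty-type members with a high level. It had 177, 34.2 and 86.1 CPM in CBM and 119.9, 115 and 27.5 CPM in EBM. CBM replicate 1 and EBM replicates 1 and 2 were high, CBM replicate 2 and EBM replicate 3 were low, and the regions overlapped. The log2 fold change had a value of -0.18 and a standard error of 0.70 (adjusted p = 0.988, edgeR's quasi-likelihood test).

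**Figure D2:**
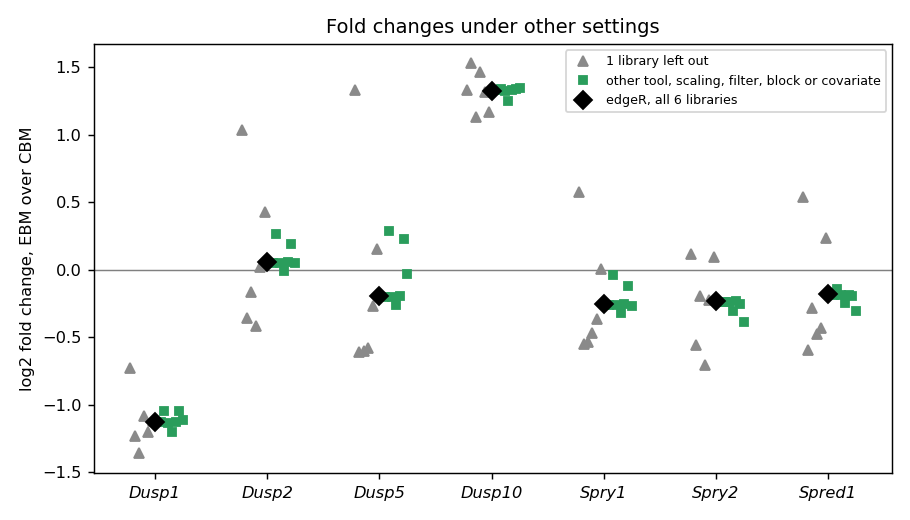
Log2 fold change of EBM over CBM for each tested member in edgeR with all 6 libraries (black), under other tools, scalings, filters, a replicate block or a surrogate variable (green), and with 1 library left out (grey). Dusp1 stays below 0, between -1.36 and -0.73, and Dusp10 above 0, between 1.13 and 1.53, while each of the other 5 genes lies on both sides of 0.

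Levels of different genes were compared as RPKM, which are TMM-normalized CPM per kilobase of the gene length given in the table. In CBM the order was Dusp1 (332 ± 142 RPKM, SD, n = 3), Dusp5 (28.0 ± 31.6), Dusp2 (21.9 ± 19.0), Spred1 (14.6 ± 10.7) and Dusp10 (5.69 ± 1.53), followed by Spry2 (0.964 ± 0.458), Spry1 (0.645 ± 0.493), Spry4 (0.198 ± 0.152), Dusp6 (0.0622 ± 0.0634) and Dusp4 at 0. Dusp1 stood clear of the next gene and Dusp10 of Spry2, while the neighbours among Dusp5, Dusp2, Spred1 and Dusp10, and those among Spry2, Spry1, Spry4 and Dusp6, did not differ beyond their spread. In EBM Dusp1 was again first at 152 ± 12.5 RPKM, followed by Dusp5 (24.5 ± 12.8), Dusp2 (22.7 ± 13.3), Dusp10 (14.2 ± 2.87) and Spred1 (12.9 ± 7.65), of which the last 4 did not differ from their neighbours beyond their spread. Below them stood Spry2 (0.813 ± 0.450), Spry1 (0.535 ± 0.199), Dusp6 (0.0906 ± 0.107), Spry4 (0.0564 ± 0.0488) and Dusp4 (0.0338 ± 0.0423), where Spry1 stood clear of Dusp6 and the other neighbours did not differ beyond their spread. By these means the Sprouty genes together lay more than an order of magnitude under each of Dusp1, Dusp2 and Dusp5 in both regions. The orders above set means against their SD and leave out that the genes were read in the same libraries. Within every library Spry2 lay above Spry1 and Spry1 above Spry4, whereas Dusp5 and Dusp2 changed order between libraries.

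Dusp1 made up most of the RNA of the members per length in every library. The summed RPKM of the 10 members was 636, 313 and 264 in the CBM replicates in order and 244, 249 and 189.8 in EBM replicates 1 to 3. Dusp1 made up 77.5%, 90.5% and 83.6% of this sum in CBM and 58.0%, 66.6% and 78.1% in EBM, with overlap between the regions. Dusp10 made up 0.907%, 2.29% and 1.56% in CBM and 4.66%, 5.71% and 9.02% in EBM, without overlap. The per-length ratio of Dusp10 to Dusp1, which does not depend on the scaling between libraries, was 0.0117, 0.0254 and 0.0187 in CBM and 0.0804, 0.0858 and 0.115 in EBM. Its mean on the log2 scale was 2.39 higher in EBM, a 5.24-fold difference. This ratio was chosen after the values of both genes were seen, and no p is given for it.

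Dusp10 shares its substrate preference with Dusp8 and Dusp16. These genes are not members but belong to the list of other MAP kinase phosphatases. Dusp16, which encodes MKP-7, had 484, 324 and 361 counts in the CBM replicates in order and 1731, 1498 and 835 counts in EBM replicates 1 to 3. Dusp8 had 101, 145 and 46 counts in CBM and 508, 437 and 329 counts in EBM. For both genes every EBM library lay above every CBM library, as for Dusp10. The log2 fold change had a value of 1.90 and a standard error of 0.28 for Dusp16 and 2.23 with a standard error of 0.41 for Dusp8 (adjusted p = 0.143 and 0.189, edgeR's quasi-likelihood test). Neither passed the threshold there, and DESeq2 gave adjusted p-values of 1.62e-08 and 2.53e-06. Over the fits without 1 library, the value lay between 1.72 and 2.15 for Dusp16 and between 1.87 and 2.62 for Dusp8. Each EBM library lay above every CBM library for all 3 genes of the JNK and p38 group, formed after the values were seen. In either direction, the libraries of the regions did not overlap for 15.1% of all tested genes. Phosphatase genes outside the group went both ways. Dusp3 was higher in every EBM library than in any CBM library, and Dusp1, Dusp7 and Dusp19 were lower.

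None of the ERK-preferring cytoplasmic phosphatases was higher in every EBM library. Dusp7 had 224, 202 and 333 counts in CBM and 128, 123 and 157 counts in EBM, with every EBM library below every CBM library. Its log2 fold change had a value of -0.73 and a standard error of 0.24 (adjusted p = 0.516, edgeR's quasi-likelihood test), and DESeq2 gave an adjusted p of 0.248. Dusp9 had at most 2 counts in a library, and Dusp6 was as low as given above.

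**Figure D3:**
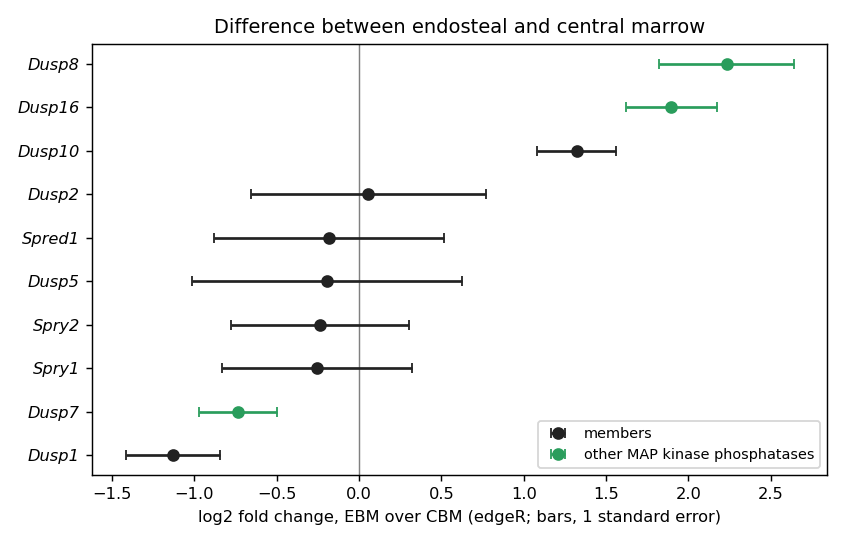
Log2 fold change of EBM over CBM from edgeR for the 7 tested members (black) and for Dusp8, Dusp16 and Dusp7 (green), with bars of 1 standard error and a line at 0. Dusp8, Dusp16 and Dusp10 stand to the right at 2.23, 1.90 and 1.32, Dusp1 and Dusp7 to the left at -1.13 and -0.73, and the bars of the other 5 genes cross 0.

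Dusp8, Dusp10 and Dusp16 form the group named here for JNK and p38. Summed per length over them, the RNA was 10.5, 10.9 and 6.89 RPKM in CBM and 29.4, 29.9 and 28.3 RPKM in EBM. Each EBM library was well over the highest CBM library. The EBM sums were nearly equal although the genes were not, since opposite orders over EBM replicates 1 to 3 cancelled. Dusp10 had 11.4, 14.2 and 17.1 RPKM there, Dusp16 had 12.25, 10.7 and 6.88, and Dusp8 had 5.76, 4.995 and 4.34. The means of the sums were 9.43 ± 2.21 and 29.2 ± 0.804 RPKM (SD, n = 3), a 3.10-fold difference. Taken singly, the SD in EBM was 2.87 RPKM for Dusp10, 2.76 for Dusp16 and 0.710 for Dusp8. The nuclear group of Dusp1, Dusp2, Dusp4 and Dusp5 summed to 601, 299.9 and 246 RPKM in CBM and 213, 216 and 168 RPKM in EBM, also without overlap and in the other direction. Most of that sum was Dusp1, with 493, 283 and 221 RPKM in CBM and 142, 166 and 148 RPKM in EBM. Dusp2 and Dusp5 overlapped between the regions, so the lower nuclear sum in EBM was that of Dusp1 and not of the group. Of the RNA of these 10 MAP kinase phosphatases, the JNK and p38 group made up 2.62% ± 0.890 in CBM and 12.8% ± 1.26 in EBM, and the nuclear group 96.2% ± 1.29 and 86.1% ± 1.65. The cytoplasmic ERK group had 1.20% ± 0.663 in CBM and 1.11% ± 0.384 in EBM, where the libraries overlapped. Its summed RPKM did not overlap and was lower in EBM, at 4.03 ± 0.845 in CBM and 2.49 ± 0.527 in EBM (SD, n = 3). Most of this sum was Dusp7, at 3.96 and 2.38 RPKM. The grouping follows what is known of the enzymes, by location for the nuclear group and by substrate for the others. Nuclear enzymes were not sorted by substrate, so the JNK and p38 group need not hold every phosphatase of these kinases. The grouping was applied after the values were seen, and no p is given for it.

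**Figure D4:**
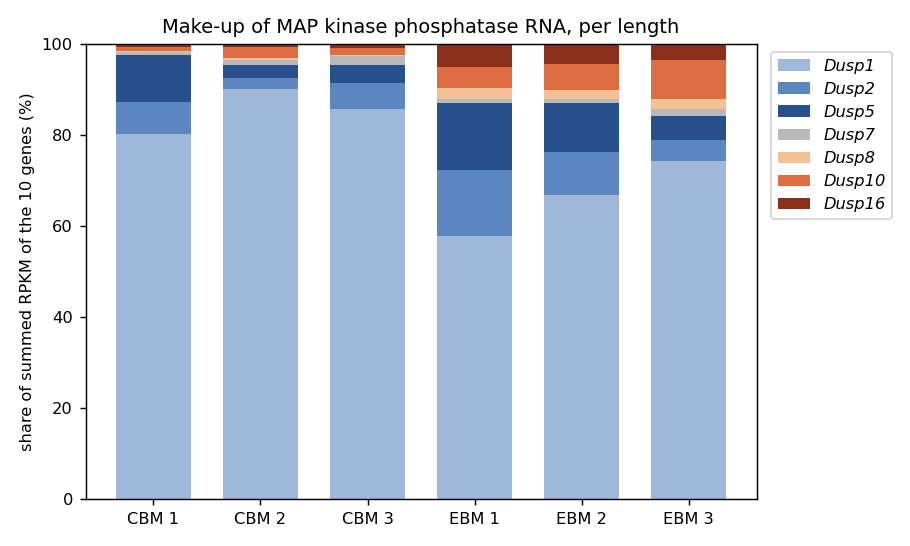
Share of each gene in the summed RPKM of 10 MAP kinase phosphatases, in percent, with 1 bar per library and nuclear genes in blue, Dusp7 in grey and JNK and p38 phosphatases in orange to brown, while Dusp4, Dusp6 and Dusp9 are too low to be seen. The orange to brown part takes at most 3.48% of a CBM bar and, on average, 12.8% of an EBM bar.

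The members outside Dusp1 and Dusp10 varied widely between libraries of the same region. From the lowest to the highest library, Dusp5 ranged 6.96-fold within CBM and 3.36-fold within EBM, Dusp2 5.89-fold and 3.97-fold, and Spred1 5.19-fold and 4.36-fold. Spry1 ranged 3.53-fold and 2.21-fold and Spry2 2.90-fold and 3.44-fold, whereas Dusp1 ranged 2.23-fold and 1.17-fold and Dusp10 at most 1.74-fold. By the SD of log2 CPM within regions, Dusp5, Spred1 and Dusp2 stood above 97.1% of all tested genes, and Spry1 and Spry2 above 93.0%. Dusp1 stood above 77.1% and Dusp10 above 69.4% of them.

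These 5 genes were high and low in the same libraries. Relative to its own mean, each of the 5 was high in CBM replicate 1 and EBM replicate 1 and low in CBM replicate 2 and EBM replicate 3. Over the 6 libraries, Pearson's r of log2 CPM was between 0.760 and 0.981 for the 10 pairs among them, and between 0.806 and 0.998 after the region means were taken off. Dusp1 had r between 0.221 and 0.500 with the 5, and between 0.294 and 0.797 within regions, where it was highest with Dusp5 and Spry1. Dusp10 had r between -0.477 and 0.0175, and between -0.754 and -0.229 within regions. The ratio of Dusp5 to Dusp2 per length stayed between 0.691 and 1.49 in the 6 libraries, although each gene ranged over several-fold. These are descriptions over 6 libraries that share their library preparation, and the 5 genes were grouped after their values were seen.

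**Figure D5:**
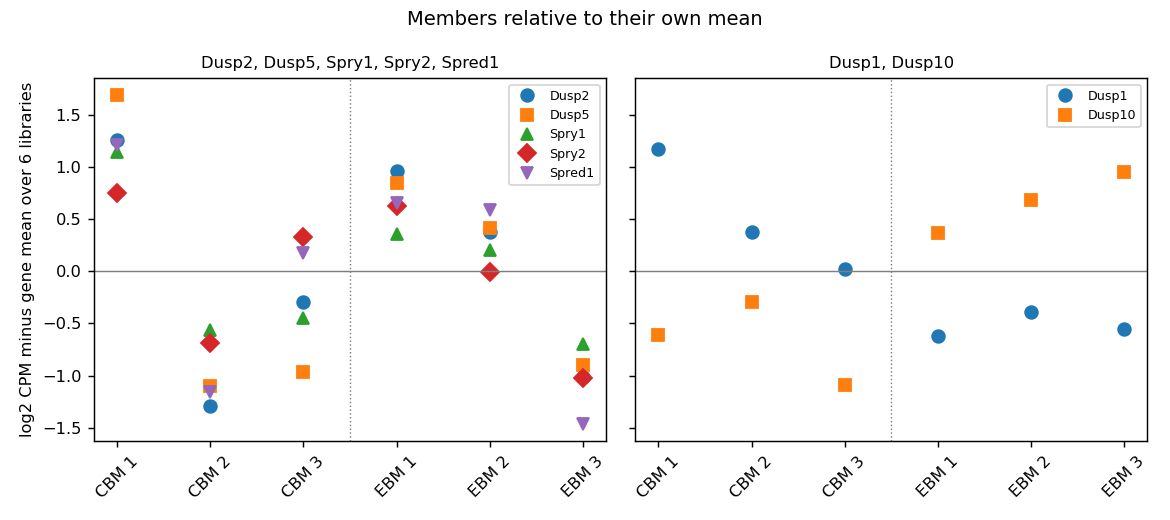
Log2 CPM of each tested member minus its mean over the 6 libraries, with Dusp2, Dusp5, Spry1, Spry2 and Spred1 on the left, Dusp1 and Dusp10 on the right, and a dotted line between CBM and EBM. On the left the genes move together from library to library across both regions, with CBM replicate 1 high and EBM replicate 3 low, and on the right Dusp1 lies above and Dusp10 below each of their EBM values in all 3 CBM libraries.

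A similar order of libraries was the main axis of the whole data set. The first principal component of log2 CPM held 53.0% of the variance, and CBM replicates 1 to 3 scored 38.5, -42.9 and -5.8 on it where EBM replicates 1 to 3 scored 36.4, 19.8 and -46.0. Over the 6 libraries, r with these scores was 0.985 for Dusp2, 0.974 for Spred1, 0.926 for Spry2, 0.904 for Dusp5 and 0.897 for Spry1, but 0.184 for Dusp1 and -0.142 for Dusp10. The summed megakaryocyte markers Pf4, Gp9 and Itga2b had a like order, with 28.5, 10.9 and 13.6 CPM in CBM and 24.6, 27.1 and 7.07 CPM in EBM, most of it from Itga2b, while Gp9 ran the other way, with 0.626, 3.21 and 2.38 CPM in CBM and 0.386, 1.61 and 2.63 CPM in EBM. The summed erythroid markers were lowest in CBM replicate 1 and highest in CBM replicate 2, with 2063 and 5028 CPM, and in EBM were lowest in replicate 1 and highest in replicate 3, with 2372 and 3507 CPM. The neutrophil markers had another order, with 5.06, 127 and 1.39 CPM in CBM and 27.6, 85.6 and 19.8 CPM in EBM, and the part of these cell types in the levels of the 5 genes was not tested. In a fit with 1 surrogate variable for such an axis, Dusp1 and Dusp10 had adjusted p-values of 0.0494 and 0.0101, by edgeR's quasi-likelihood test, and the other 5 members stayed above 0.05. That fit called 276 of all 13352 tested genes, and 2097 had an unadjusted p under 0.05, against 1056 without the surrogate variable.

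By Pearson's r of log2 CPM over the 6 libraries, the genes most like Dusp1 were Metrn (0.981), Cd68 (0.975) and Gm15927 (0.974), and those most like Dusp10 were Klf11 (0.999), Cd74 (0.996) and Derl2 (0.993). The genes nearest to Dusp2 were Prnp (0.998), Nlrp6 (0.998) and Jak3 (0.997), and those nearest to Dusp5 were Hist1h2ac (0.998), Aff3 (0.998) and Tspan32 (0.995). Spred1 was closest to F2rl2 (0.997), Gsdme (0.997) and Macf1 (0.996), Spry2 to Snx25 (0.997), F2rl3 (0.994) and Ehd2 (0.993), and Spry1 to Mx1 (0.995), Exoc6b (0.995) and Atp2a1 (0.995). These values describe 6 libraries, were picked as the highest among 13352 genes, and carry no test. The named genes ranged widely in level, with means of 0.557 CPM for Mx1 and 0.641 CPM for Atp2a1 against 1043 CPM for Prnp. Klf11 and Cd74 were themselves higher in EBM by 0.77 and 2.06 on the log2 scale (adjusted p = 0.220 and 0.189 in edgeR's quasi-likelihood test), so neither passed the threshold.

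The kinase cascades that the members restrain were read next. Of 25 genes of the ERK cascade, from adaptors over Ras and Raf to ERK and its RSK targets, 23 were tested, with 12 on the higher and 11 on the lower side in EBM and a median log2 fold change of 0.02. None was called by edgeR or DESeq2. By edgeR's quasi-likelihood test 1 gene, not named here, had an unadjusted p under 0.05, on the higher side. Ptpn11, which encodes the phosphatase SHP2, had a log2 fold change of 0.08, and Sos2 and Nras had -0.12 and -0.04.

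Of 20 genes of the JNK and p38 cascade, 19 were tested, with 12 on the higher side, 7 on the lower and 0.04 as the median log2 fold change, and 3 had an unadjusted p under 0.05, all of them higher, with none called by DESeq2 or by edgeR without a surrogate variable. Mapkapk3, a kinase gene downstream of p38, had 2537, 2094 and 2756 counts in CBM and 3473, 3284 and 2536 counts in EBM, and after scaling the regions did not overlap. Its log2 fold change was 0.46 (adjusted p = 0.417), that of Map3k11, an upstream kinase gene of JNK, was 0.25 (adjusted p = 0.540), and that of Map2k3, an activator gene of p38 that lies outside the naming rule, was 0.43 (adjusted p = 0.596), all by edgeR's quasi-likelihood test. In the fit with 1 surrogate variable Mapkapk3 and Map2k3 passed the threshold, at adjusted p-values of 0.0317 and 0.0494 in edgeR. The lowest p-values among genes lower in EBM were those of Map3k7, which encodes TAK1, at -0.19 and Mapk9, which encodes JNK2, at -0.18, and neither met the unadjusted limit.

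Among 15 other dual-specificity and MAP kinase phosphatase genes, 8 were tested, which lay 4 on each side of 0, at a median of -0.01. At an unadjusted p under 0.05, 3 were higher (Dusp16, Dusp8 and Dusp3) and 1 was lower (Dusp7). Dusp3, the gene of a small atypical phosphatase of ERK and JNK that the naming rule did not pick, had a log2 fold change of 0.60 (adjusted p = 0.491), and Dusp19 one of -0.33 (adjusted p = 0.658, both in edgeR's quasi-likelihood test). Of 19 other brakes on Ras and ERK, such as Spred2, Nf1 and the Rasa genes, 16 were tested and 8 lay on each side, with a median of -0.02 and none at an unadjusted p under 0.05. Pebp1, which encodes the Raf kinase inhibitor protein, and Nf1, the neurofibromin gene, had 0.33 and 0.15, and Lztr1 had -0.09. DESeq2 called Dusp16 and Dusp8 among these phosphatase genes and none of the brakes, and edgeR with 1 surrogate variable called Dusp16, Dusp8 and Dusp3, at adjusted p-values of 0.000352, 0.0203 and 0.0149.

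Of 12 genes that ERK is known to switch on, 8 were tested, 6 on the higher and 2 on the lower side, with 0.17 as the median log2 fold change. Myc, the growth-promoting transcription factor gene, stood apart with 133, 108 and 137 CPM in CBM and 53.8, 51.3 and 52.8 CPM in EBM. Its log2 fold change of -1.26 (standard error 0.11) shared the smallest adjusted p of the whole table (adjusted p = 0.0583, edgeR's quasi-likelihood test), which did not pass the threshold, while DESeq2 gave 2.45e-13. Ier3 had -0.16, and Plaur and Egr1, the genes of smallest p among those higher in EBM, had 0.28 and 0.38. Without CBM replicate 1 these became 0.15, 0.66 and 1.21. No other of the 8 met the unadjusted limit.

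The 12 immediate early genes were all tested, with 9 on the higher and 3 on the lower side in EBM and 0.60 as the median log2 fold change. None was called by DESeq2 or by edgeR without a surrogate variable, and 3 had an unadjusted p under 0.05, all higher. Nr4a1, a nuclear receptor gene induced within minutes of stimulation, had 213, 44 and 92 counts in CBM and 1333, 1016 and 158 counts in EBM (log2 fold change 2.89, adjusted p = 0.435), and Egr3 had 11, 1 and 0 counts in CBM and 45, 19 and 11 in EBM (2.67, adjusted p = 0.596). Egr2, outside the naming rule, had 1.96 (adjusted p = 0.596, all by edgeR's quasi-likelihood test). With 1 surrogate variable Nr4a1 passed, at an edgeR adjusted p of 0.000352. Fos had 7325, 1941 and 1054 counts in CBM and 1832, 1456 and 737 counts in EBM (log2 fold change -1.31, adjusted p = 0.725 in edgeR), and Jun had -0.10. CBM replicate 1 decided several of these values, since without it Fos moved to -0.01, Jun to 0.74, Egr2 to 2.99 and Egr3 to 5.46. Dusp1 and Fos, both immediate early genes by background knowledge, were highest in CBM replicate 1, and the mean of the 12 genes relative to their own means was 0.36, -0.47 and -1.30 in CBM and 0.75, 0.48 and 0.17 in EBM. The induction of such genes by digestion was not tested.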

How the data were processed

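RNA-seq of AE9a leukemia cells was analysed in 3 CBM and 3 EBM libraries. The authors deposited raw counts per gene, with a gene length, as 1 table of 54532 genes, without normalization. The submitters' processing notes name HISAT2 2.0.5 and the build mm10, while the counting tool and its strand setting are not given in the sources used here. Libraries were directional, and the label calls them mRNA where the study's methods name rRNA depletion. Genes were kept by filterByExpr with a minimum count of 10, which left 13352 genes and 7 of the 10 members. Counts were scaled by TMM factors and tested by edgeR 4.0.16 (quasi-likelihood test, Benjamini-Hochberg adjustment over all tested genes, threshold 0.05), in R 4.3.3. The standard error is the absolute log2 fold change over the square root of F, log2 CPM had a prior count of 2, and RPKM were TMM-normalized CPM per kilobase of the deposited length. A single value was also tested by an exact two-sided permutation over 20 relabellings, whose smallest p is 0.1.

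Alternatives were DESeq2 1.42.0, limma-voom (limma 3.58.1), other scalings, no filter on low counts, a replicate block, 1 surrogate variable (sva 3.50.0) and each library left out. The members and the 6 lists of pathway genes were chosen with earlier results of these data known. The naming rule was the members, in each list the 2 tested genes of smallest p in each direction, and for each tested member the 3 genes of highest Pearson's r. Some genes it picks are not reported here. Genes outside it are said to be so, and Dusp8, Dusp10 and Dusp16 were grouped after their values were seen. The tests were checked on simulated counts. No duplicate was found among the libraries of a region, with a chi-square per degree of freedom no lower than 13.1 for the 6 pairs within regions.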

Additional observations from a re-analysis of the deposited data

How the results depend on the processing

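The number of calls, from 3 libraries per region, depended on the tool and its settings, and the reason was not tested. At an adjusted p under 0.05 edgeR called 0 genes, DESeq2 175, edgeR without the filter on low counts 40, and edgeR with 1 surrogate variable 276. Among the pathway genes the counts were 0 in edgeR, 3 in DESeq2, 3 without the filter and 7 with the surrogate variable, and among the members 0 in edgeR, 2 in DESeq2 and 2 with the surrogate variable. Leaving out a library left all of these edgeR counts at 0. Dusp1 and Dusp10 kept their direction in all 13 alternatives, with adjusted p between 0.00982 and 0.838 and between 7.41e-05 and 0.683 in edgeR, DESeq2 or limma. Dusp2 turned to -0.0087 with scaling by total counts alone, and Dusp5 to 0.29 in limma-voom and 0.23 with the replicate block. With 1 library left out, the log2 fold change was between -1.36 and -0.73 for Dusp1, 1.13 and 1.53 for Dusp10, -0.42 and 1.03 for Dusp2, -0.61 and 1.33 for Dusp5, -0.59 and 0.54 for Spred1, -0.55 and 0.58 for Spry1, and -0.71 and 0.12 for Spry2. The signs of Dusp5, Spred1, Spry1 and Spry2 turned without CBM replicate 1 or without EBM replicate 3, and that of Dusp2 without CBM replicate 2, CBM replicate 3 or EBM replicate 1, and the cause was not tested. Scaling by total counts moved the median log2 fold change of all genes to -0.07 and gave 340 higher and 884 lower genes at an unadjusted p under 0.05, against 535 and 521 with TMM. The sources do not say that a shared replicate number marks a shared mouse, so the numbers were not taken to pair the libraries. Deviations from the region means correlated across genes with r of 0.676, -0.204 and 0.203 between libraries of the same number. With 3 libraries per region these values cannot decide whether the libraries were paired. With the replicate number as a block edgeR called 0 genes, with Dusp1 at -1.04 and Dusp10 at 1.33 (adjusted p = 0.474 and 0.386).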
